A study of Mus musculus with 10 samples.

Results

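The V segments joined to J1 were compared with those joined to J5 in Igk transcripts of WT small pre-B cells, the bone marrow stage at which the kappa light chain locus is rearranged. The joins were chosen by their J call, with alleles merged and the deposited parts of a sample added up, so J1 and J5 joins were read from the same 5 WT samples. These were 5 of the 10 samples analysed, and their J1 and J5 joins held 40853 of 161780 counts. J1 joins made up 22110 counts, 5144 clonotypes (distinct combinations of V, J and CDR3 in a sample) and 107 V segments, and J5 joins made up 18743 counts, 5034 clonotypes and 108 V segments. Together they held 112 of the 114 V segments in the table. The WT mice were C57Bl6 animals of 6 to 12 weeks, and the other 5 samples came from rsCBE mice of the same background and age range, a genotype written as a deletion in the design text and not spelled out in the labels. RNA came from cells sorted by flow cytometry without culture, and amplicons of Igk were sequenced on a MiSeq. The labels do not say that each sample is a separate animal, so p-values measure the spread between these samples, which may be technical. An amplicon of 1 locus holds no other genes by which the sorted cell type could be checked.

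As background, a kappa gene forms when the recombinase joins 1 of many V segments to 1 of a few J segments. V segments on the same strand as the J segments join by deletion of the DNA between them, and those on the opposite strand join by inversion, which keeps that DNA on the chromosome. A joined allele can rearrange again, using an upstream V and a downstream J segment, and this replacement is the basis of receptor editing. J1 lies nearest to the V segments and J5 lies nearest to the constant region, so a J5 join leaves no functional J segment for a further V to J rearrangement on that allele. The labels and the title name receptor editing and chromatin topology as the subject of the study.

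The ends of the J segments are shown because they set the 3′ part of each joint. They come from the GENCODE M21 transcripts (build GRCm38, chromosome 6, forward strand, J1 at chr6:70722562-70722599 and J5 at chr6:70723886-70723923), printed 5′ to 3′, with the bases that lie in the CDR3 in capitals.
Igkj1: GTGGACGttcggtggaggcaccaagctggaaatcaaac
Igkj2: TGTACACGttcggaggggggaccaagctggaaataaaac
Igkj4: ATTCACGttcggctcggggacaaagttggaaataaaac
Igkj5: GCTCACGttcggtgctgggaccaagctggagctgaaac
The CDR3 of a J1 or J5 join thus holds at most 7 bases of J. All 7 were present in 46.2% ± 3.35 (SD, n = 5) of J1 counts and 49.2% ± 3.09 (SD, n = 5) of J5 counts. Of the 5034 J5 clonotypes, 1.07% had a V and CDR3 that also occurred with J1 in the same sample, against 7.21% with J2 and 9.38% with J4. These clonotypes held 1.44% of J5 counts for J1, 14.6% for J2 and 21.4% for J4. For those clonotypes the J call rests on bases beyond the CDR3.

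The next sequences are the germline V ends and the most counted CDR3 with J1 and with J5 for 4 V segments, picked after their values were seen. Of these, 2 had a far higher share of J5 joins than of J1 joins (Igkv17-121 and Igkv2-137) and 2 the reverse (Igkv3-2 and Igkv1-135). Germline ends come from the GENCODE M21 transcripts and CDR3s from the deposited table. Capitals mark the longest run at the 3′ end that matches the J segment, and where such a base also matches the V end, its origin cannot be told apart.
Igkv17-121 germline: ttgcaaagtgataacttgcctct
Igkv17-121 to J1: ttgcaaagtgataacttgccGTGGACG
Igkv17-121 to J5: ttgcaaagtgataacttgcctCTCACG
Igkv2-137 germline: atgcaacatctagaatatccttt
Igkv2-137 to J1: atgcaacatctagaatatccTGGACG
Igkv2-137 to J5: atgcaacatctagaatatccGCTCACG
Igkv3-2 germline: cagcaaagtaaggaggttcctcc
Igkv3-2 to J1: cagcaaagtaaggaggttccGTGGACG
Igkv3-2 to J5: cagcaaagtaaggaggttccGCTCACG
Igkv1-135 germline: tggcaaggtacacattttcctca
Igkv1-135 to J1: tggcaaggtacacattttcctcGGACG
Igkv1-135 to J5: tggcaaggtacacattttccGCTCACG
Igkv17-121 to J1 was represented by only 29 counts in all, 16 of them this CDR3, and Igkv17-121 to J5 by 456 counts, 178 of them this CDR3. For Igkv3-2 the leading CDR3 took 419 of 937 J1 counts and 46 of 134 J5 counts. The leading Igkv1-135 joints took 251 of 1444 J1 counts and 71 of 262 J5 counts. Those of Igkv2-137 took 14 of 54 J1 counts and 178 of 491 J5 counts, and its leading J1 joint, 26 bases long, was out of frame. Each printed joint keeps the germline V sequence up to its last few bases and differs between J1 and J5 at the 3′ end.

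The samples fell into separate sets before any comparison of J classes. Replicates 1 and 2 were deposited as 1 library each and replicates 3 to 5 as 2 parts each, a division taken from the table, since the labels name no batch. The WT samples ranged from 3109 counts (replicate 4, with 860 J1 and 1084 J5 counts) to 22765 counts. Igkv1-135 and Igkv8-16 took far more of the counts in replicates 3 to 5 than in replicates 1 and 2, in J1 and in J5 joins, and their values are given below. Because each comparison was made within samples, such a difference enters both classes. A test of whether the J5 to J1 ratio differed between these sets called 0 of 67 V segments by edgeR's quasi-likelihood test, with 1 at an unadjusted p under 0.05.

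J5 joins drew on V segments in different shares from J1 joins. Most V segments occurred in both classes, while 5 had J5 counts and no J1 counts and 4 the reverse. Of the 112 V segments seen, 67 had enough counts to be tested, and the share of 33 of them differed at an adjusted p under 0.05 (edgeR's quasi-likelihood F-test on counts, with the sample as a block, Benjamini-Hochberg adjustment), which is 49.3% of those tested. There were 18 with a higher share of J5 joins (26.9%) and 15 with a higher share of J1 joins (22.4%), and 40 had an unadjusted p under 0.05. The direction was the same in 5 of 5 samples for 27 of the 33. In 22 of the 67 the J1 and J5 values did not overlap, 13 higher in J5 and 9 higher in J1. The other 45 V segments with counts were too low to test and held 5.90% of J1 and J5 counts in WT. The filter asked for enough counts in at least 5 of the 10 combinations of sample and J class. A V segment could therefore pass through the class in which it was high, and the counts of calls and of values without overlap are over V segments chosen in this way. Without the filter 37 were called, 30 of them among the 33. The 18 V segments called higher in J5 summed to 6.70% ± 1.82 of J1 joins and 36.9% ± 2.67 of J5 joins (SD, n = 5), and the 15 called higher in J1 to 54.1% ± 3.53 and 20.98% ± 2.92. These sums describe the choice and carry no test. Without replicate 1 the number of calls was 18 and without replicate 2 it was 17, and all of these were among the 33 and had the same direction. Where a family has near-identical copies, the count of 1 copy is uncertain, because reads could have been assigned to another before deposition.

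**Figure D1:**
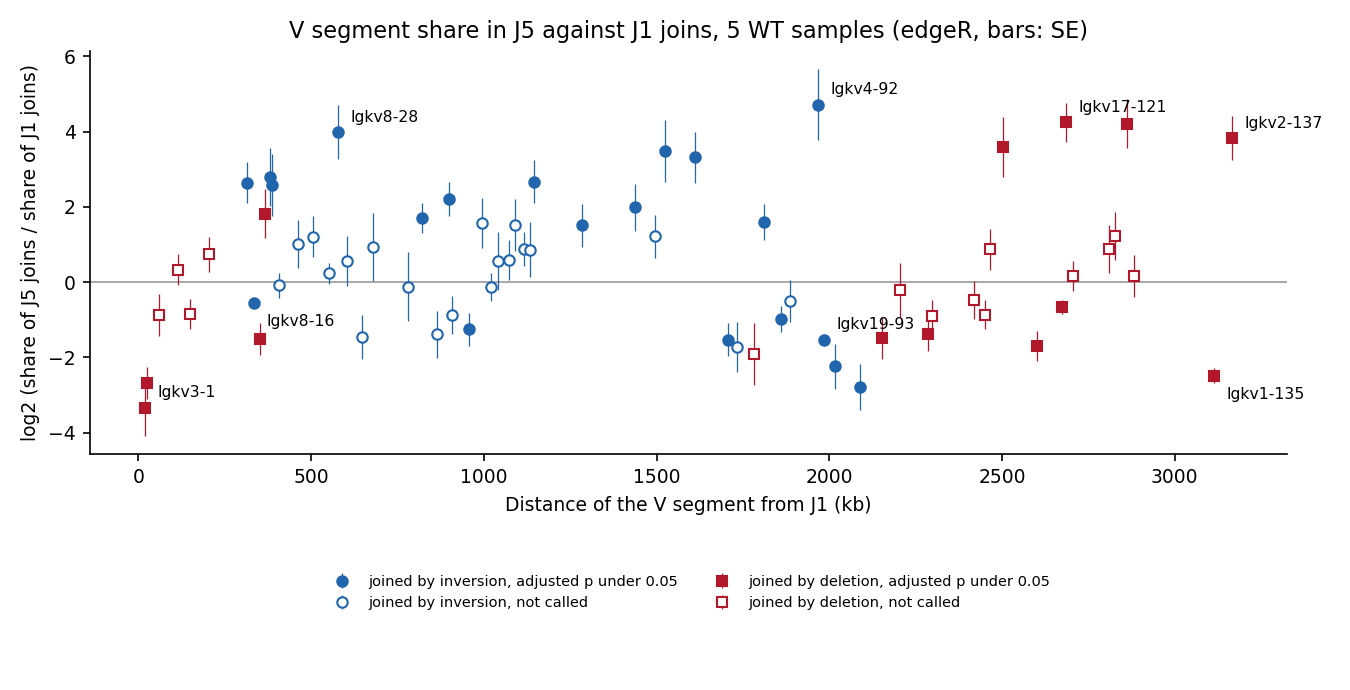
Log2 ratio of a V segment's share of J5 joins to its share of J1 joins in WT (edgeR estimate, bars show the SE) against the distance of the V segment from J1 in kb, for the 67 tested V segments. Circles join by inversion and squares by deletion, filled where the adjusted p is under 0.05. Called segments run from Igkv3-1 at 18.4 kb to Igkv2-137 at 3166.3 kb, and the nearest one called higher in J5 is Igkv6-15 at 315.6 kb.

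Both segments of the Igkv17 family had a higher share in J5. They lie in the distal part of the locus, on the strand of the J segments, and join by deletion. Igkv17-121 (chr6:68036812-68037318, a V gene 2685.2 kb from J1) took 0.10, 0.153, 0.107, 0 and 0.228% of J1 joins in replicates 1 to 5. Its shares of J5 joins were 2.43, 2.54, 2.05, 1.75 and 3.02%. All 5 J5 values lay above all 5 J1 values, and the 0 in replicate 4 allows a share of up to 0.349% at 860 counts. The log2 ratio of J5 to J1 share was 4.25 ± 0.52 (SE) with an adjusted p of 0.000156 by edgeR. Igkv17-127 (chr6:67861153-67861659, 2860.9 kb from J1) took 0.157, 0.169, 0.193, 0.581 and 0% of J1 joins against 3.04, 3.19, 2.89, 2.86 and 3.89% of J5 joins, again with no overlap. Its log2 ratio was 4.21 ± 0.66 (SE) with an adjusted p of 0.000868 by edgeR. Together the pair made up 0.34% ± 0.14 of J1 joins and 5.53% ± 0.89 of J5 joins (SD, n = 5).

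Igkv4-92 (chr6:68755038-68755593, joined by inversion, 1967.0 kb from J1) had the largest log2 ratio of the named V segments, 4.72 ± 0.95 (SE), with an adjusted p of 0.00371 by edgeR. It was nearly missing from J1 joins in 4 samples, at 0.0573, 0.0153, 0 and 0.0325% in replicates 1, 2, 3 and 5. In replicate 4 it took 1.05%, from 9 counts that all carried 1 CDR3 sequence. J5 shares were 1.71, 2.74, 1.28, 2.03 and 1.37%, above every J1 value. Without replicate 4 the log2 ratio was 5.95, with an adjusted p of 0.000763 by edgeR.

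Igkv2-137, the tested V segment farthest from J1 (chr6:67555497-67556216, 3166.3 kb), took 0.258, 0.429, 0.0428, 0 and 0.195% of J1 joins and 2.32, 3.36, 2.18, 2.12 and 2.56% of J5 joins. The classes did not overlap, and the log2 ratio was 3.83 ± 0.58 (SE) with an adjusted p of 0.000868 by edgeR. Igkv2-112, a member of the same family, had a log2 ratio of 3.59 ± 0.80 (SE, adjusted p 0.00442 by edgeR). The third tested member, Igkv2-109, lay on the other side of 0 at -0.48 and was not called (adjusted p 0.428 by edgeR).

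Several V segments of the proximal and middle parts, all in the orientation that joins by inversion, followed. Igkv8-28 (chr6:70143593-70144166, 578.4 kb from J1) took 0 to 0.199% of J1 joins with a median of 0.163%, and 1.23 to 4.89% of J5 joins with a median of 1.53%. Its log2 ratio was 3.99 ± 0.72 (SE, adjusted p 0.00209 by edgeR). Igkv5-43 (chr6:69823355-69823943) was the most used of the segments higher in J5, with 2.49, 1.98, 0.578, 0 and 0.911% of J1 joins and 6.97, 7.60, 3.56, 3.14 and 2.77% of J5 joins. Its J5 values all exceeded its J1 values, with a log2 ratio of 2.21 ± 0.45 (SE, adjusted p 0.00371 by edgeR). Log2 ratios were 2.64 for Igkv6-15, 2.59 for Igkv6-20 and 2.67 for Igkv4-57. Igkv4-73 and Igkv4-77, annotated as pseudogenes and so unable to encode a light chain, had log2 ratios of 3.50 and 3.32. Of these 12 segments, 10 were called without each replicate in turn. Igkv4-73 was not called without replicate 2 (adjusted p 0.0535), and Igkv6-20 was not called without replicate 1, 2 or 3 (adjusted p 0.192, 0.111 and 0.0558, all by edgeR).

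The tested V segments nearest to the J cluster were higher in J1. Igkv3-1 (chr6:70703578-70704177), the nearest of all at 18.4 kb, took 1.06, 1.2, 1.52, 1.51 and 1.46% of J1 joins and 0.184, 0.235, 0.0256, 0.369 and 0% of J5 joins. Its neighbour Igkv3-2 (chr6:70698449-70699067, 23.5 kb from J1) took 4.34, 5.4, 3.3, 4.07 and 3.03% of J1 joins against 0.570, 0.830, 0.896, 0.0923 and 0.756% of J5 joins. Neither had overlapping classes. The log2 ratios were -3.34 ± 0.74 (SE, adjusted p 0.00442) for Igkv3-1 and -2.68 ± 0.43 (SE, adjusted p 0.000927) for Igkv3-2, by edgeR. The other 4 tested members of the Igkv3 family lie farther from J1 and were not called. Their log2 ratios were -0.88 for Igkv3-5, 0.33 for Igkv3-7, -0.84 for Igkv3-10 and 0.74 for Igkv3-12.

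Near the far end of the locus, Igkv1-135 (chr6:67609713-67610508, 3112.1 kb from J1, joined by deletion) was also higher in J1, close to Igkv2-137 with its opposite ratio. In replicates 1 and 2 it took 2.61 and 2.24% of J1 joins and 0.534 and 0.307% of J5 joins. In replicates 3 to 5 it took 13.5, 12.0 and 12.4% of J1 joins and 3.38, 1.38 and 2.48% of J5 joins. The classes overlapped across samples because of the gap between these sets, yet the share was lower in J5 in 5 of 5 samples. The log2 ratio was -2.48 ± 0.19 (SE, adjusted p 6.84e-06 by edgeR). Igkv1-117 of the same family, joined by deletion, had a log2 ratio of -1.70 ± 0.40 (SE, adjusted p 0.00536 by edgeR).

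The other named V segments higher in J1 lay in several parts of the locus, and some of them were neighbours. Igkv19-93, Igkv10-94, Igkv10-96 and Igkv12-98 follow each other among the tested V segments, from 1985.8 to 2151.3 kb from J1. All of them were called higher in J1. Igkv6-17 likewise lies beside Igkv8-16. Igkv19-93 (chr6:68736297-68736780, joined by inversion) took 9.23, 9.54, 6.30, 7.91 and 6.02% of J1 joins and 3.53, 3.70, 2.28, 3.04 and 1.40% of J5 joins, without overlap. Its log2 ratio was -1.53 ± 0.16 (SE, adjusted p 4.95e-05 by edgeR), and it lies at 1985.8 kb from J1, close to Igkv4-92 at 1967.0 kb with the largest named ratio toward J5. Igkv10-94 had a log2 ratio of -2.24 and Igkv4-80 one of -1.53. Igkv10-96, which did not meet the rule for named segments because its direction was not the same in every sample, was also called, at -2.79. The remaining named segments on this side were Igkv6-17 (-1.5), Igkv12-98 (-1.48), Igkv15-103 (-1.38), Igkv1-88 (-0.98) and Igkv9-120 (-0.67). With Igkv8-16, described below, 13 called segments were named on the side of J1, and 7 of them lost the call without at least 1 replicate. Igkv10-94 lost it without replicate 2 (adjusted p 0.0614) and Igkv4-80 without replicate 1 or 2 (adjusted p 0.0762 and 0.106). For Igkv6-17, Igkv12-98, Igkv15-103, Igkv1-88 and Igkv9-120 the highest adjusted p without 1 replicate was 0.0879, 0.238, 0.139, 0.134 and 0.113, all by edgeR. The replicates whose loss ended these calls were 1, 2 and 5 for Igkv6-17 and Igkv15-103, 1, 2 and 3 for Igkv12-98 and Igkv9-120, and 1, 2, 3 and 5 for Igkv1-88.

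Averaged over both classes, the 5 most used V segments were Igkv8-16, Igkv19-93, Igkv1-135, Igkv9-120 and Igkv8-27. Igkv8-16 (chr6:70386672-70387252, joined by inversion) took 2.71, 3.46, 11.4, 11.3 and 13.7% of J1 joins and 1.73, 2.47, 6.30, 10.2 and 8.64% of J5 joins in replicates 1 to 5. Its J5 share was lower in 5 of 5 samples, with a log2 ratio of -0.56 ± 0.12 (SE, adjusted p 0.00399 by edgeR), though DESeq2 did not call it (-0.30, adjusted p 0.285). Igkv8-27 differed in no consistent direction, with a log2 ratio of 0.24 ± 0.28 (SE, adjusted p 0.483 by edgeR) and a higher J5 share in 3 of 5 samples.

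The size of several of these ratios moved with the way joins were counted. Here an in-frame join has a CDR3 of whole codons with no stop codon in it. An out-of-frame join has a CDR3 of any other length, so joins of whole codons with a stop codon are in neither set. With each clonotype counted as 1, the log2 ratio was 3.79 for Igkv4-92, 2.80 for Igkv17-127, 1.88 for Igkv2-137 and 1.06 for Igkv5-43. On the side of J1 it was then -1.47 for Igkv3-2, -1.81 for Igkv1-135 and -1.06 for Igkv1-117, and all 7 were called by edgeR. In out-of-frame joins alone it was 5.51 for Igkv17-127, 2.02 for Igkv2-137, -1.93 for Igkv3-2 and -2.32 for Igkv19-93. Igkv6-17 had a log2 ratio of -0.051 there and Igkv1-88 one of -0.37, and neither was called (adjusted p 0.943 and 0.636 by edgeR). In-frame joins alone gave 5.09 for Igkv2-137 and 3.27 for Igkv4-57. Within the samples given as 1 library and those given as 2 parts, the log2 ratio was 5.81 and 4.0 for Igkv4-92, 3.17 and 5.29 for Igkv8-28, 2.19 and 6.04 for Igkv2-112, and -2.42 and -4.53 for Igkv3-1. Igkv4-92 was not called in the latter set (adjusted p 0.0633 by edgeR).

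**Figure D2:**
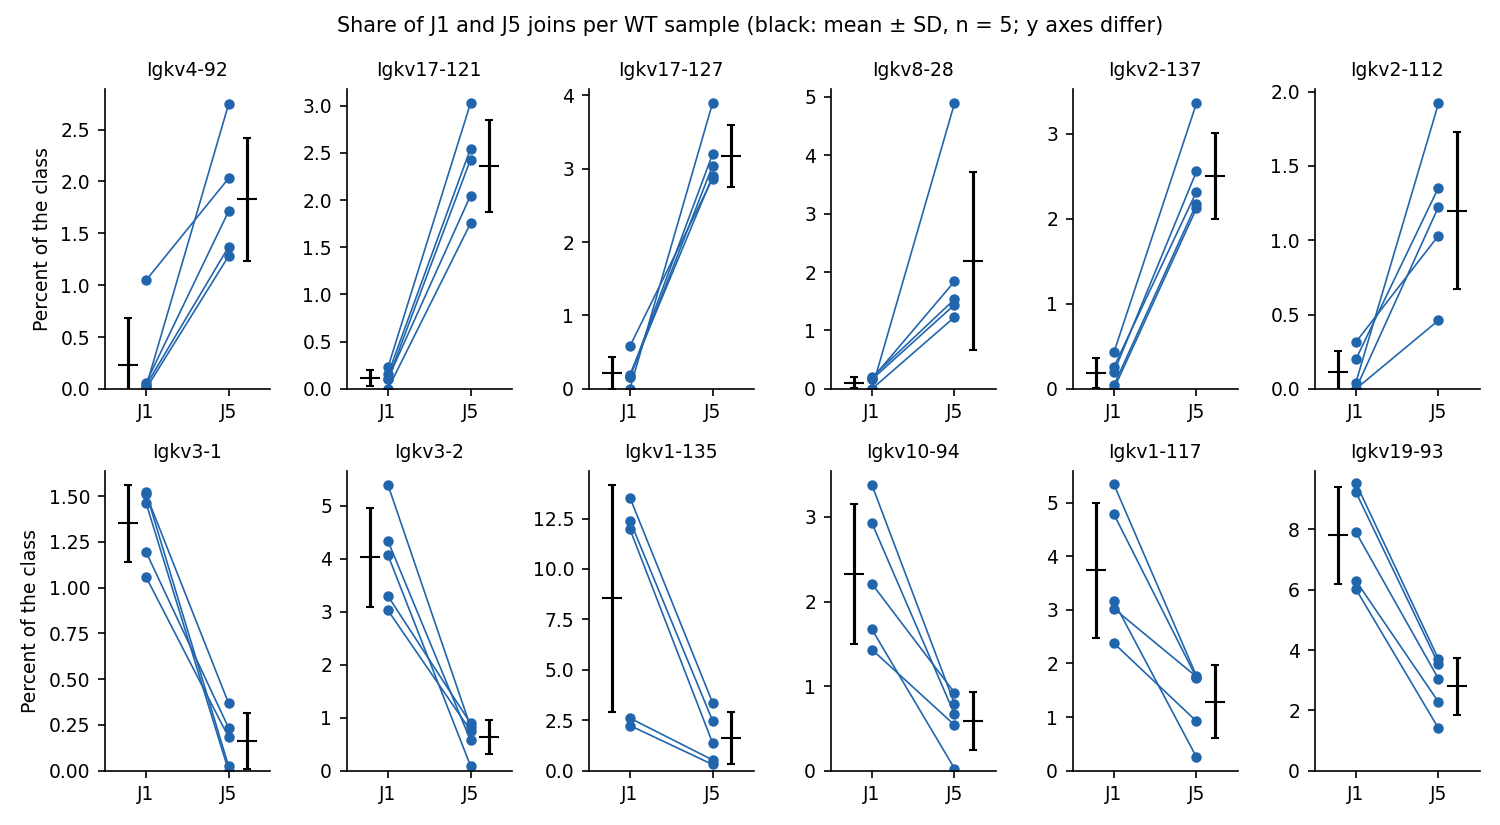
Share of J1 joins and of J5 joins, in percent of the counts of that class, taken by 12 named V segments in each of the 5 WT samples, with lines joining the values of a sample and black marks for the mean and SD (SD bars are cut off at 0, and the y axes differ between panels). In the upper row every J5 value lies above every J1 value, and in the lower row the same holds the other way except for Igkv1-135, whose samples fall into sets of 2 and 3.

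The V families are described by their counts of calls, beside the 26.9% called higher in J5, the 22.4% called higher in J1 and the median log2 ratio of 0.33 over all 67 tested. Each family has few tested members, and no count is read as particular to a family. Of the Igkv4 family, 16 of 31 members were tested, 7 were called higher in J5 and 1 (Igkv4-80) higher in J1, with a median of 1.37. The family as a whole took 10.7% ± 1.88 of J1 joins and 22.7% ± 4.09 of J5 joins (SD, n = 5). Igkv5 had 2 of 3 tested members higher in J5 and Igkv8 had 3 of 9, with 1 (Igkv8-16) the other way. Igkv6 was divided, 2 higher in J5 and 1 (Igkv6-17) higher in J1 of 5 tested. Called higher in J1 were 3 of 5 tested members of Igkv1, 2 of 6 of Igkv12, 2 of 2 of Igkv10 and 2 of 6 of Igkv3, with none of these 4 families called higher in J5. Igkv1 took 19.3% ± 4.46 of J1 joins and 7.25% ± 1.26 of J5 joins, and Igkv10 took 3.66% ± 0.88 and 0.77% ± 0.28 (SD, n = 5). Of 15 pseudogenes, 3 were tested and 2 were called, both higher in J5. All 15 together took 1.28% ± 0.45 of J1 joins and 4.22% ± 1.31 of J5 joins, higher in J5 in 5 of 5 samples. Most of that difference came from the 2 called ones, Igkv4-73 (means of 0.18% of J1 and 1.71% of J5 joins) and Igkv4-77 (0.06% and 0.69%).

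By orientation, 13 of 40 tested V segments that join by inversion were called higher in J5 and 7 higher in J1, with a median log2 ratio of 0.87. These are 32.5% and 17.5% of those tested, beside 26.9% and 22.4% over all 67. Among the 27 tested that join by deletion, 5 were higher in J5 and 8 higher in J1 (18.5% and 29.6%), with a median of -0.48. The shares called lie near those over all tested V segments, so the counts of calls alone show no result about orientation. As a share of counts, V segments joined by inversion took 51.6, 54.2, 56.4, 53.0 and 56.2% of J1 joins and 67.0, 65.9, 65.5, 63.3 and 68.8% of J5 joins. The classes did not overlap, and the means were 54.3% ± 2.06 and 66.1% ± 2.02 (SD, n = 5), a difference of 11.8 percentage points in the same direction in 5 of 5 samples. The two-sided exact sign-flip permutation p was 0.063. This is as low as this paired test can give with 5 pairs, so it cannot reach 0.05 for any single value in WT alone. The share joined by deletion, which makes up nearly all of the rest, differed by -11.7 percentage points. Without Igkv1-135, left out after seeing the data, it differed by -7.49 among the joins left, lower in J5 in 5 of 5 samples, and by -4.80 of all joins, lower in 3 of 5. Over all 10 samples of both genotypes the inversion share differed by 12.1 percentage points, higher in 10 of 10 (exact permutation p 0.00195, as low as 10 pairs can give). The WT samples are among those 10, so this is no separate replication.

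By position, numbers in the V names rise with distance from the J cluster for the matched V segments except Igkv4-60, which lies nearer to J1 than Igkv4-59. V segments were classed as proximal (1 to 45), middle (46 to 90) or distal (91 and above). Distal V segments took 48.0, 42.9, 42.2, 45.5 and 38.2% of J1 joins and 34.7, 35.0, 31.2, 35.8 and 29.1% of J5 joins in replicates 1 to 5, without overlap. The mean difference was -10.2 percentage points, lower in 5 of 5 (exact permutation p 0.063, adjusted 0.0938 over the 3 classes). Middle V segments took 18.5% ± 1.5 of J1 joins and 25.1% ± 4.01 of J5 joins (SD, n = 5), higher in 5 of 5 samples (exact permutation p 0.063, adjusted 0.0938). Proximal V segments took 38.2% ± 4.37 and 41.8% ± 1.59 (SD, n = 5), higher in 4 of 5 (exact permutation p 0.25). That difference of 3.61 percentage points was 2.04 without replicate 1 and 5.59 without replicate 5, and ran from 0.30 in in-frame joins to 11.2 in out-of-frame joins. Without Igkv5-43, left out after seeing the data as Igkv1-135 was, it was -0.0048 of all joins and 1.42 of the joins left. The distal difference also leaned on 1 V segment: without Igkv1-135 it was -3.29 percentage points of all joins, lower in 3 of 5 samples, and -5.77 of the joins left, lower in 5 of 5. Over all 10 samples the distal share was 10.6 percentage points lower in J5 (adjusted exact permutation p 0.00293, 10 of 10 samples).

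Position and orientation are tied in this locus, since 33 of 36 middle V segments join by inversion and 30 of 39 distal ones by deletion. Proximal segments joined by inversion took 25.2% ± 3.88 of J1 joins and 35.0% ± 2.25 of J5 joins (SD, n = 5), and those joined by deletion took 13.0% ± 1.5 and 6.75% ± 0.74. Members of both classes went either way: of 17 tested that join by inversion, 6 were called higher in J5 and 1, Igkv8-16, higher in J1, and of 8 that join by deletion, 1, Igkv8-18, was called higher in J5 and 3 higher in J1 (Igkv3-1, Igkv3-2 and Igkv6-17). Distal segments joined by inversion took 11.9% ± 1.98 and 6.33% ± 1.69, and those joined by deletion 31.4% ± 2.70 and 26.8% ± 1.80. Each of these 4 differences had the same direction in 5 of 5 samples. Each class was then taken without the 1 member that added most to its difference, a choice made after seeing the data, with all joins kept as the total. Both distal differences rested largely on that member. Without Igkv19-93, distal segments joined by inversion took 4.12% ± 0.63 of J1 joins and 3.54% ± 0.83 of J5 joins, lower in J5 in 4 of 5 samples. Without Igkv1-135, those joined by deletion took 22.9% ± 6.28 of J1 joins and 25.2% ± 2.56 of J5 joins, higher in J5 in 3 of 5 samples. The proximal difference went from 9.90 to 6.28 percentage points for inversion without Igkv5-43 and from -6.28 to -2.89 for deletion without Igkv3-2, in the same direction in 5 of 5 samples. Of the 18 tested distal members that join by deletion, 4 were called higher in J5 and 5 higher in J1, with a median log2 ratio of -0.025. Of the 22 tested distal members, 5 were called higher in J5 (Igkv17-121, Igkv17-127, Igkv2-112, Igkv2-137 and Igkv4-92), which is 22.7% against 26.9% over all tested, and 8 higher in J1, which is 36.4% against 22.4%.

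**Figure D3:**
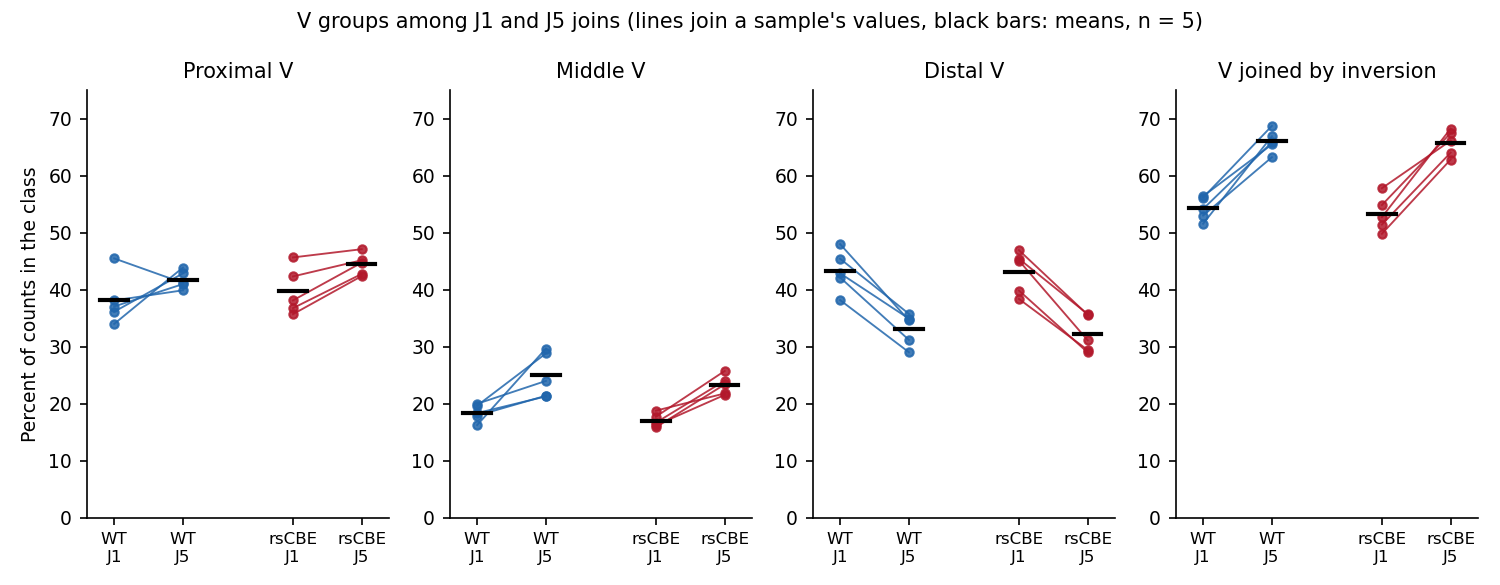
Percent of J1 and of J5 counts on proximal, middle and distal V segments and on V segments joined by inversion, for each WT (blue) and rsCBE (red) sample, with lines joining the values of a sample and black bars for the means (n = 5 per genotype). Distal shares are lower and inversion shares higher in J5 than in J1 in all 10 samples.

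The mean V position, weighted by counts, was 69.1 ± 3.63 in J1 joins and 65.4 ± 1.44 in J5 joins (SD, n = 5), lower in 5 of 5 samples by 3.70 on average (exact permutation p 0.063). In kb from J1 the means were 1505 and 1413. This average depended on a few V segments and on the reading frame. Without Igkv8-16 and Igkv1-135 the difference was -0.15. In-frame joins alone gave -0.75 and out-of-frame joins alone -10.3, a gap that was not tested. The mean difference in distal share kept its direction in each of these settings. In percentage points it was -7.51 among the joins left without those V segments, -7.55 in frame and -16 out of frame. Of all joins, the distal difference without Igkv1-135 was smaller, at -3.29 and lower in 3 of 5 samples, as given above.

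J5 joins were spread more evenly over V segments. Shannon entropy of V shares was 5.49, 5.49, 5.28, 5.09 and 5.22 bits in J1 and 5.79, 5.83, 6.01, 5.59 and 5.87 bits in J5, without overlap (exact permutation p 0.063). The share of counts in frame without a stop codon was 78.3, 74.4, 71.9, 72.1 and 69.0% in J1 and 74.3, 68.1, 67.1, 58.2 and 68.5% in J5. This in-frame share was lower in J5 in 5 of 5 samples with overlapping ranges (difference -5.89 percentage points, exact permutation p 0.063). CDR3 length was 26.61 ± 0.10 and 26.46 ± 0.21 nucleotides (SD, n = 5), a mean difference of -0.16 ± 0.23 (SD of the paired differences), shorter in J5 in 4 of 5 samples (exact permutation p 0.188). Replicate 4 had a difference of -0.534, and without it the mean was -0.061. The in-frame difference was -3.89 percentage points without the same replicate. In all, 9 single measures of this kind were compared, and only the 3 position classes were adjusted together.

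J2 and J4, which lie between J1 and J5, show where the V segments low in J1 were used. Over all V segments in WT, 31.2% ± 2.5 of counts fell on J1, 24.4% ± 3.0 on J2, 15.6% ± 1.4 on J4 and 28.6% ± 4.2 on J5 (SD, n = 5). Of the counts of Igkv17-121, 2.0% ± 1.4 were on J1, 36.3% ± 8.1 on J2, 25.8% ± 10.5 on J4 and 36.0% ± 5.8 on J5. Igkv2-137 had 2.0% ± 1.6 on J1 and 45.1% ± 7.0 on J2, its most used partner. Its 29.7% ± 7.2 on J5 was near the 28.6% over all V segments, so it was low at J1 and not high at J5. Igkv6-20 had 6.6% ± 9.7 on J1, 39.9% ± 23.3 on J4 and 25.6% ± 14.1 on J5. Igkv4-92 had 4.6% ± 8.4 on J1, 29.5% ± 5.9 on J2 and 43.2% ± 3.9 on J5. So the low value of these V segments was at J1, while J2, J4 and J5 were each used. Igkv3-1, Igkv3-2 and Igkv1-135 had 71.2% ± 10.7, 64.0% ± 7.0 and 61.8% ± 3.9 of their counts on J1, 17.7 to 23.7% on J2 and 2.8 to 7.9% on J4 on average. These profiles share their J1 and J5 counts with the comparison above and are given as a description.

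**Figure D4:**
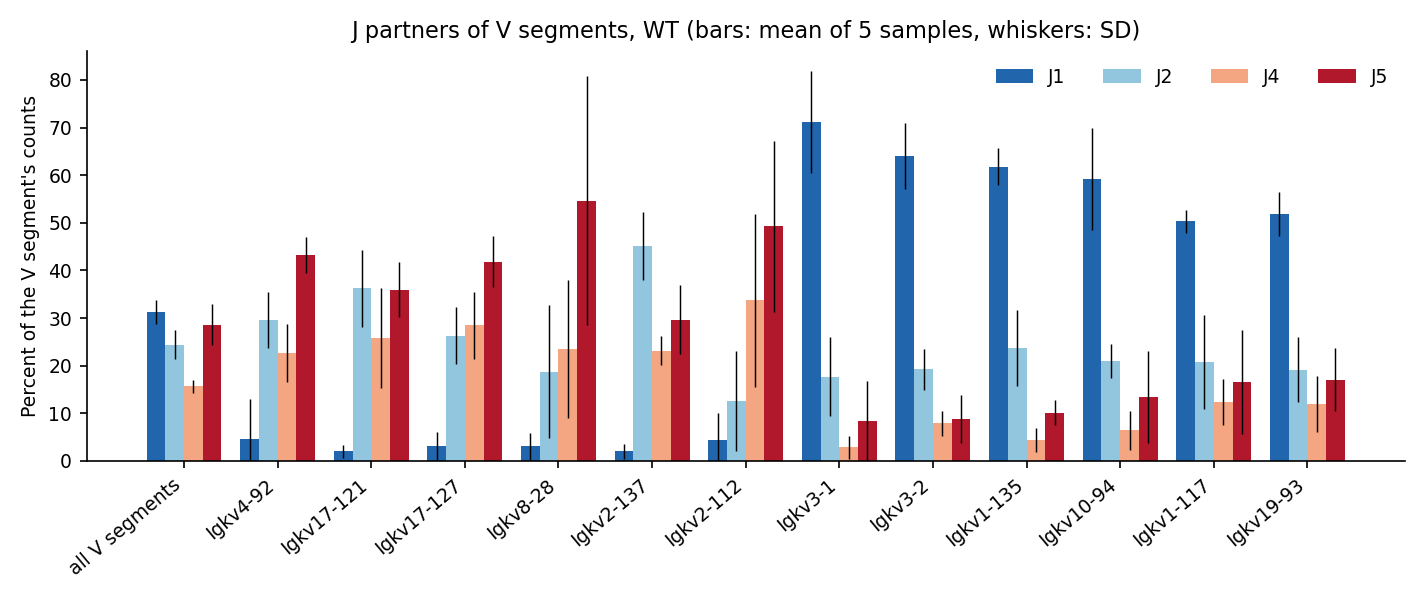
Mean percent of a V segment's counts that fell on J1, J2, J4 and J5 in WT (bars, whiskers show the SD over 5 samples) for all V segments and 12 named ones; J3 was hardly used and is left out. The J1 bar is the lowest for the 6 segments higher in J5 and the highest for the 6 higher in J1.

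The same contrast in the 5 rsCBE samples, which played no part in choosing the WT calls, gave 57 calls among 81 V segments tested by edgeR (70.4%), 31 higher in J5 (38.3%) and 26 higher in J1 (32.1%). All 33 V segments called in WT were called in rsCBE in the same direction, which is 100% of the WT calls and 57.9% of the rsCBE calls. Across the 67 V segments tested in both genotypes, the log2 ratios had a Pearson r of 0.959 and a Spearman rho of 0.962, given as a description, since V segments of a sample share a library. The V segments that WT called higher in J5 summed to 6.38% ± 0.85 of J1 joins and 34.7% ± 2.37 of J5 joins in rsCBE (SD, n = 5). Igkv17-121 had a log2 ratio of 4.84 ± 0.37 (SE) there, Igkv1-135 one of -2.61 ± 0.11 and Igkv3-1 one of -1.89 ± 0.36. The ratio of J5 to J1 share differed between genotypes for 0 of 89 V segments by edgeR, with 1 at an unadjusted p under 0.05, and for 0 by DESeq2, with 3. The median SE of that difference was 0.66 on the log2 scale, which limits how small a difference could be called. For the distal share the difference was -10.97 percentage points in rsCBE against -10.2 in WT, and for the inversion share it was 12.4 against 11.8. Neither passed a two-sided exact permutation test over genotype (p 0.563 and 0.675). The rsCBE samples fell into the same sets as WT, replicates 1 and 2 given as 1 library and 3 to 5 as 2 parts. There Igkv1-135 took 3.95 and 3.49% of J1 joins against 12.8, 13.7 and 14.7%. The tests between genotypes did not include these sets.

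**Figure D5:**
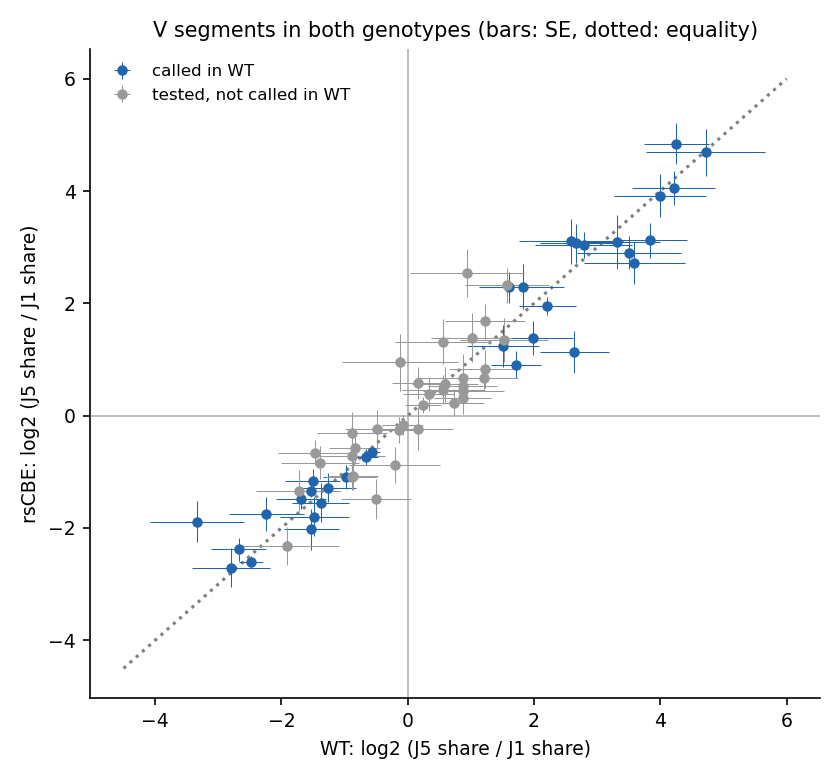
Log2 ratio of J5 to J1 share in rsCBE against that in WT for the 67 V segments tested in both genotypes (points, bars show the SE), with the dotted line marking equality. The 33 V segments called in WT (blue) lie on the same side of 0 in both genotypes.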

How the data were processed

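Igk amplicons of small pre-B cells were read in 5 WT and 5 rsCBE samples. The authors deposited 1 table with whole-number counts per V call, J call and CDR3 in each library, per the file headers, without normalization. The build mm10 stands in the submitters' processing notes. The caller, germline set and filters are not given in the sources used here, nor is whether a count is a molecule, so intervals cover counting error only. Duplicate lines and parts of a sample were summed. V segments were placed with GENCODE M21 (GRCm38); 112 of 114 matched. Counts per sample and J class were tested with edgeR 4.0.16 in R 4.3.3 (quasi-likelihood F-test, filterByExpr, factors of 1, so ratios are of shares), with the sample as a replicate block because both classes come from the same sample; the fit was tested on simulated data. Single values used exact permutation tests. Alternatives changed the normalization (TMM), the tool (DESeq2 1.42.0), the filter, the unit counted, the frame, the block, the class borders and the samples used.

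Named V segments had an adjusted p under 0.05, the same direction in 5 of 5 WT samples and a mean share of at least 0.5% in a class (at most 12 per direction), or were among the 5 most used, or nearest to or farthest from J1, or called between genotypes (0 were). Members and lists were chosen with earlier results of these data known.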

Additional observations from a re-analysis of the deposited data

Results flagged for a closer look

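Values of the 5 WT samples were looked at in 76 sets (the share of a named V segment in a J class, a measure of a whole class, or the difference of that measure between J5 and J1). In 4 of these, 1 sample lay far from the other 4, with a gap over 0.71 of the whole range. Chance gives such a gap in about 1 of 20 sets, which is 3.8 here. Igkv4-92 took 1.05% of J1 joins in replicate 4 (9 of 860 counts, Wilson 95% interval 0.552 to 1.98%), against 0 to 0.0573% in the others. Igkv8-28 took 4.89% of J5 joins in the same sample (53 of 1084 counts, Wilson 95% interval 3.76 to 6.34%), against 1.23 to 1.84%. Igkv15-103 was high in replicate 1 in both classes, at 4.57% of J1 joins against 0.750 to 1.30% in the others, and 1.77% of J5 joins against 0.216 to 0.646%.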

How the results depend on the processing

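The 33 V segments called in WT kept their direction in every alternative in which they could be tested. The number called in WT was 19 with each clonotype counted as 1 (28 V segments tested), 15 in out-of-frame joins (36 tested), 59 in the samples given as 1 library, 13 in those given as 2 parts, and 17 to 48 with 1 WT replicate left out. In rsCBE it was 33 in out-of-frame joins (52 tested) against 57. Without the replicate block, 27 were called in WT, 26 of them among the 33, and among those named Igkv4-80, Igkv12-98, Igkv15-103, Igkv1-88, Igkv9-120 and Igkv8-16 lost their calls. Calls of named segments were also lost by Igkv1-88 and Igkv9-120 with TMM factors (adjusted p 0.072 and 0.0714 by edgeR) and with DESeq2 (0.0883 and 0.101), and by Igkv8-16 with DESeq2. Igkv12-98 lost its call without a filter (adjusted p 0.0854 by edgeR), Igkv12-98 and Igkv15-103 in in-frame joins (0.193 and 0.141), and both with Igkv1-88 without clonotypes of 1 count (0.128, 0.0517 and 0.0662). Out-of-frame joins lost Igkv6-17, Igkv1-88, Igkv1-117, Igkv9-120 and Igkv8-16, and the samples given as 1 library lost Igkv1-88 (adjusted p 0.0593 by edgeR). Those given as 2 parts lost 12 of the named segments. Replicate numbers shared by the genotypes were not used as pairs. Unpaired exact permutation tests, which ignore the block but allow smaller p-values, passed for the middle share (6.61 percentage points, adjusted p 0.0119), the distal share (-10.2, adjusted p 0.0119), the inversion share (11.8, p 0.00794) and the entropy (0.51 bits, p 0.00794). The mean V position over all 10 samples no longer passed in in-frame joins (-1.09, exact permutation p 0.199) and without Igkv8-16 and Igkv1-135 (-0.83, p 0.355). In the 4 samples given as 1 library it was -3.24 with the same direction in 4 of 4 and an exact permutation p of 0.125, the lowest that 4 pairs allow, so no call could be made there. Signs changed for CDR3 length in in-frame joins (0.0728) and in samples given as 1 library (0.0156), for Igkv8-27 with each clonotype counted as 1 (-0.0407) and in samples given as 1 library (-0.0691), and for the genotype difference in mean position in samples given as 1 library (0.207). The causes were not tested. Leaving out replicate 4, the sample with the fewest counts and also tried as an addition after seeing the data, left all 33 calls in place. Depth limits the low class of each V segment most, since a count of 0 in J1 joins allows 0.0429 to 0.349% depending on the sample.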
